A study of Mus musculus with 24 samples.

Results

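Acetylation of lysine 27 of histone H3 (H3K27ac) was mapped in V6.5 mouse embryonic stem cells arrested in mitosis (2 libraries) and in the same line growing asynchronously (2 libraries). These 4 of the 24 samples of the series were chosen by antibody, and their peak lists were merged wherever peaks shared at least 1 bp, which gave 60680 regions. Both groups were of the same strain with no stated genetic change, were grown on irradiated feeders with LIF and then on gelatin with MEK1 and Gsk3 inhibitors, and were fixed in 1% formaldehyde for 10 min. The mitotic cells had also received nocodazole, which blocks spindle assembly, for 7 h and were shaken off the plate. The labels give that dose as 100 ug/ml, and whether the unit is right could not be checked. The antibody was Abcam ab4729. Both mitotic libraries carry one project code in their labels and both asynchronous ones another, so state and project cannot be told apart in any comparison. The labels do not say whether replicates were separate cultures, so p-values measure only the spread between these libraries.

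H3K27ac is laid down mainly by the acetyltransferases p300 and CBP, is removed by histone deacetylases and is read by bromodomain proteins. It marks active promoters and enhancers, and in embryonic stem cells its widest domains lie at genes of the pluripotency network. Most transcription stops in mitosis and many sequence-specific factors leave the chromosomes, so the study asked which marks remain on regulatory elements.

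Each list gives a peak's fold enrichment over local background, called fold here. It is the authors' value and serves to order peaks within a list. Read depth was not in the lists and is unknown, so list length was the only measure of yield. The lists held 36526 and 30771 peaks in mitotic cells and 47475 and 46491 in asynchronous cells. The labelled cell type matched its markers: 10 of 10 embryonic stem cell genes had kept regions. Of 17 feeder fibroblast markers, 2 and 1 had a peak in the mitotic lists and 3 and 2 in the asynchronous lists, and 14 had no peak in any list. Of 14 neural progenitor markers, 5 and 3 had a peak in the mitotic lists and 8 and 9 in the asynchronous lists. Of all 21887 protein-coding genes, 11772 and 11058 had a peak in the mitotic lists and 13178 and 13070 in the asynchronous lists. The neural counts in the asynchronous lists were near that share.

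The library mitotic 2 stood apart at 4 genes, which encode the reprogramming factors Sox2, Myc, Klf4 and Oct4 (Pou5f1). The 5 highest folds of its whole list lay on them. Sox2 had a fold of 93.7 in mitotic 2 and 12.5 in mitotic 1, against 27.7 and 29.0 in the asynchronous libraries. Klf4 had 91.4 in mitotic 2 and 12.3 in mitotic 1, against 29.3 and 21.8 in the asynchronous libraries. Pou5f1 had 67.4 in mitotic 2 and 11.3 in mitotic 1, against 38.3 and 27.7 in the asynchronous libraries. At these 3 genes mitotic 2 lay above both asynchronous libraries and mitotic 1 below both. Myc, which drives growth and division, had 2 peaks of 92.8 in mitotic 2 and no peak in mitotic 1, against highest folds of 6.27 and 4.36 in the asynchronous libraries. The next highest fold in mitotic 2 was 57.1, on Ppp2r5c. In the Klf4 library of the same project labelled mitotic 1, peaks also lay on Sox2, Myc, Klf4 and Pou5f1, with folds of 10.1, 8.18, 6.26 and 4.76, and in the other 2 mitotic Klf4 libraries none of these genes had a peak. That Klf4 library also had peaks on Esrrb (7.79) and Nanog (5.77). Nanog had a peak in the other 2 as well (4.72 and 5.71), and Esrrb in 1 of them (4.65). The part of the mitotic 2 signal at the 4 genes in the results below was not tested. Without mitotic 2, Sox2, Klf4 and Pou5f1 still had a peak in every remaining list, and Myc had asynchronous peaks only.

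**Figure D1:**
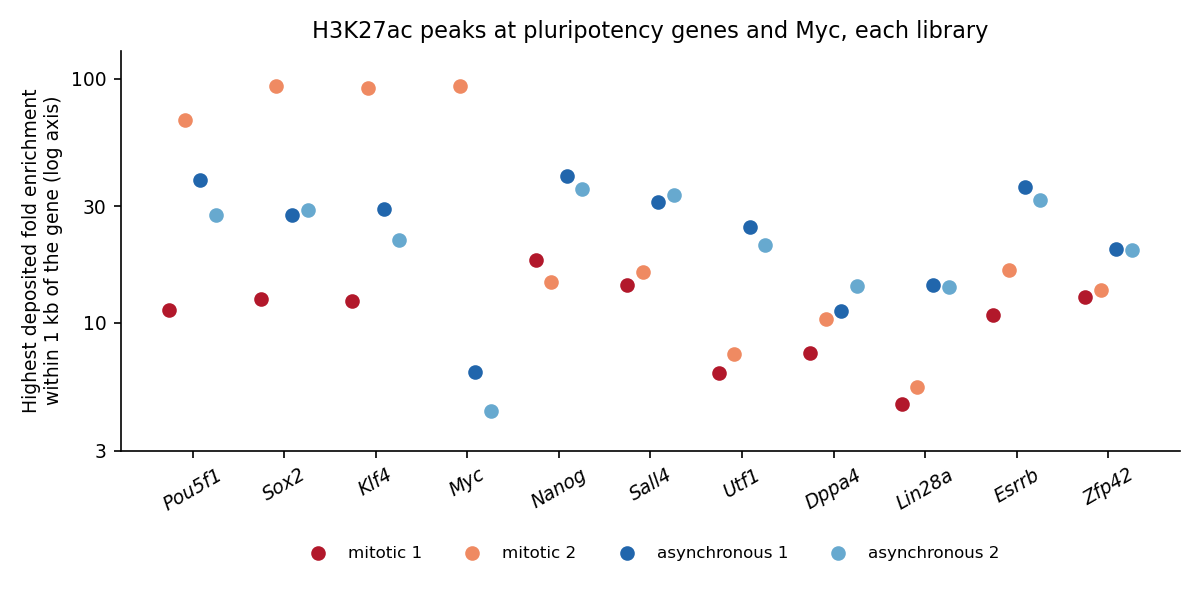
Highest deposited fold enrichment of H3K27ac over merged regions that reach within 1 kb of 11 genes (vertical axis, log scale). There is 1 point per library, mitotic libraries in red and orange and asynchronous ones in blue. At Sox2, Klf4, Myc and Pou5f1 the library mitotic 2 lies between 67.4 and 93.7, above the other 3 libraries, and at Nanog, Sall4, Utf1, Dppa4, Lin28a, Esrrb and Zfp42 both mitotic points lie below both asynchronous points.

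Chromosome 8 held a larger share of the peaks in both mitotic lists. It held 6.36% and 6.56% of mitotic peaks and 4.82% and 4.85% of asynchronous peaks, a ratio of mean shares of 1.34. On the other 18 autosomes that ratio lay between 0.863 and 1.05. The X chromosome held 2.27% and 2.25% of mitotic peaks and 2.71% and 2.62% of asynchronous peaks. Of the asynchronous regions on chromosome 8, 57.5% were kept, against 40.5% to 50.0% on the other autosomes. The 2 mitotic Klf4 lists that share the project code of the mitotic H3K27ac libraries had 9.30% and 9.72% of their peaks on chromosome 8. The mitotic Klf4 list of another project had 6.36% there, and the 3 asynchronous Klf4 lists had 5.12%, 5.42% and 6.93%. The part of this excess in the results below was not tested. Without chromosome 8 the numbers of kept, lost and mitotic-only regions were 14092, 12357 and 5322.

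**Figure D2:**
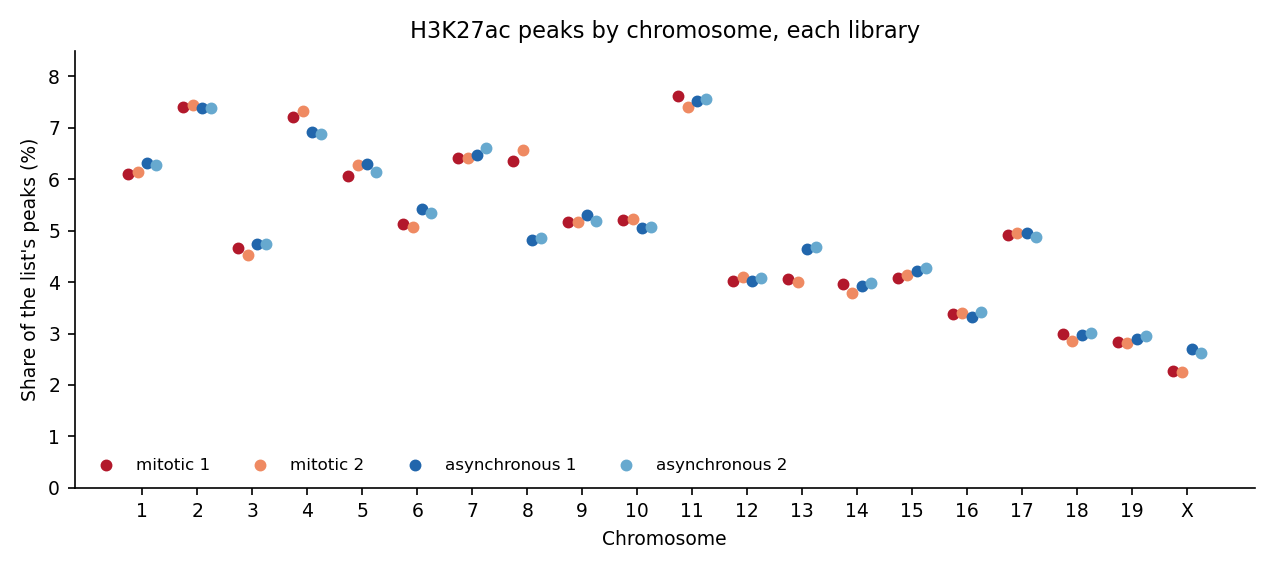
Share of each H3K27ac list's peaks on each chromosome (percent), 1 point per library, mitotic in red and orange, asynchronous in blue. On chromosome 8 the mitotic lists lie at 6.36% and 6.56% and the asynchronous lists at 4.82% and 4.85%.

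Sequences upstream of 7 genes show promoters of each outcome described below. Regions are called kept when both mitotic and both asynchronous lists had a peak, lost when both asynchronous lists and no mitotic list did, and mitotic-only when both mitotic lists and no asynchronous list did. Gtse1, Cdkn1a, Ccng1 and Btg2 had kept promoters that ranked higher in the mitotic lists. Fosb and Nr0b1 had lost promoters, and the Dcxr promoter was mitotic-only. Each sequence is the 250 bases before a transcription start, for Gtse1 and Cdkn1a 1 of 2 listed starts (RefSeq, GRCm38.p6, the build called mm10), read 5′ to 3′ on the gene's strand, and capitals mark 3 of the motifs searched. These were CCGGAAG, the core bound by ETS factors such as GABPA (its reverse complement is in capitals in Gtse1), TGACGTCA, the cyclic AMP response element bound by CREB and ATF factors (in Btg2), and the 20-base p53 consensus with its 4 core bases intact and at most 2 mismatches (in Cdkn1a and Ccng1). Both strands were searched, and the motifs do not overlap in these sequences.
Gtse1, chr15:85859457-85859706, plus strand: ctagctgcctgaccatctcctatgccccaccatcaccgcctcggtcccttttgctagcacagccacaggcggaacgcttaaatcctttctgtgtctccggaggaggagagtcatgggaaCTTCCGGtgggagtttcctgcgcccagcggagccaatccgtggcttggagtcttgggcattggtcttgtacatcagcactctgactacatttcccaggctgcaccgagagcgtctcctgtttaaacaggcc
Cdkn1a, chr17:29090729-29090978, plus strand: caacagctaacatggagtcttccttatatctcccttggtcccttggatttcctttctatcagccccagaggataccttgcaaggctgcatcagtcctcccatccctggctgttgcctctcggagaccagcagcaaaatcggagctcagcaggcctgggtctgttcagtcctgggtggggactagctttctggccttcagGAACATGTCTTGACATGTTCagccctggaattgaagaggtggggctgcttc
Ccng1, chr11:40755287-40755536, minus strand: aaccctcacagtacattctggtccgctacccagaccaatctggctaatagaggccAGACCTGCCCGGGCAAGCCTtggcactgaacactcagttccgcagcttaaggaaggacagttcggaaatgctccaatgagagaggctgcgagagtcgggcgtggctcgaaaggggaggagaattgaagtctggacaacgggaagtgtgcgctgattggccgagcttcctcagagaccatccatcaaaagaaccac
Btg2, chr1:134079156-134079405, minus strand: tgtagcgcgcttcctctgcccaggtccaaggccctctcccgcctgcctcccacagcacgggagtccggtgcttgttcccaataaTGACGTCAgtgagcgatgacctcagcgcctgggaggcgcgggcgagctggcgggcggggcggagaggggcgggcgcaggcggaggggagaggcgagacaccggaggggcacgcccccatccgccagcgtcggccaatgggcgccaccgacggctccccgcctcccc
Fosb, chr7:19310046-19310295, minus strand: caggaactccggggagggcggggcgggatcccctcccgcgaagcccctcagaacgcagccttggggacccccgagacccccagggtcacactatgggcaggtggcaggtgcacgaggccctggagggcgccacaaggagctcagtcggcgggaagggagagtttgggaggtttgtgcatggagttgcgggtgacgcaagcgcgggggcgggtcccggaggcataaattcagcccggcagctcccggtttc
Nr0b1, chrX:86191525-86191774, plus strand: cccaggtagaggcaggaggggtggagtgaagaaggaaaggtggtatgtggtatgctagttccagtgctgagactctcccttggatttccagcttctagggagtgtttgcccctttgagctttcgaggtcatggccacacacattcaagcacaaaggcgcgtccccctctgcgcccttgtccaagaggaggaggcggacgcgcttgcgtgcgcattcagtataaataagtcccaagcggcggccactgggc
Dcxr, chr11:120727285-120727534, minus strand: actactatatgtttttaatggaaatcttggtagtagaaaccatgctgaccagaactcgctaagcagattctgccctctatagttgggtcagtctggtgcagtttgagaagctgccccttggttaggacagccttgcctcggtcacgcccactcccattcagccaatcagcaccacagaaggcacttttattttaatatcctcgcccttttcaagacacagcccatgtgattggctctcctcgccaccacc

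Of 32482 regions with a peak in both asynchronous lists, 14962 (46.1%) were kept, 12803 (39.4%) were lost and 4717 (14.5%) had a peak in 1 mitotic list. A further 5781 regions, 26.7% of the 21652 with a peak in both mitotic lists, were mitotic-only. Kept regions were wide, with a median of 1952.5 bp, against 841 bp for lost and 1366 bp for mitotic-only regions. These are widths of merged regions, which join peaks of 4 lists when kept and of 2 lists when lost or mitotic-only. A wider region can also meet a peak more easily, so part of this contrast follows from the definition. Lists of the same state covered more of the same bases. The overlap of bases, shared bases over all bases of a pair (Jaccard), was 64.8% for the mitotic pair, 71.0% for the asynchronous pair and 35.8% to 37.0% for the 4 mixed pairs. Pairs of the same state exceeded mixed pairs by 31.5 percentage points (exact permutation test in 1 direction over 3 pairings, p = 0.3333, the smallest possible). The mitotic lists covered 39.5 and 37.7 Mb and the asynchronous lists 54.1 and 50.3 Mb, a log2 difference of -0.44 with no overlap of the states (exact two-sided permutation test, p = 0.3333, which is as low as 2 libraries against 2 can give). With each list reduced to its 30771 strongest peaks by p-value, the length of the shortest, 13301 regions were kept, 6378 lost and 6401 mitotic-only. Leaving out mitotic 2 gave 11114 mitotic-only regions, leaving out asynchronous 1 or 2 gave 21044 or 22427 lost regions, and requiring peaks to cover 50% of a region gave 9318 kept ones.

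**Figure D3:**
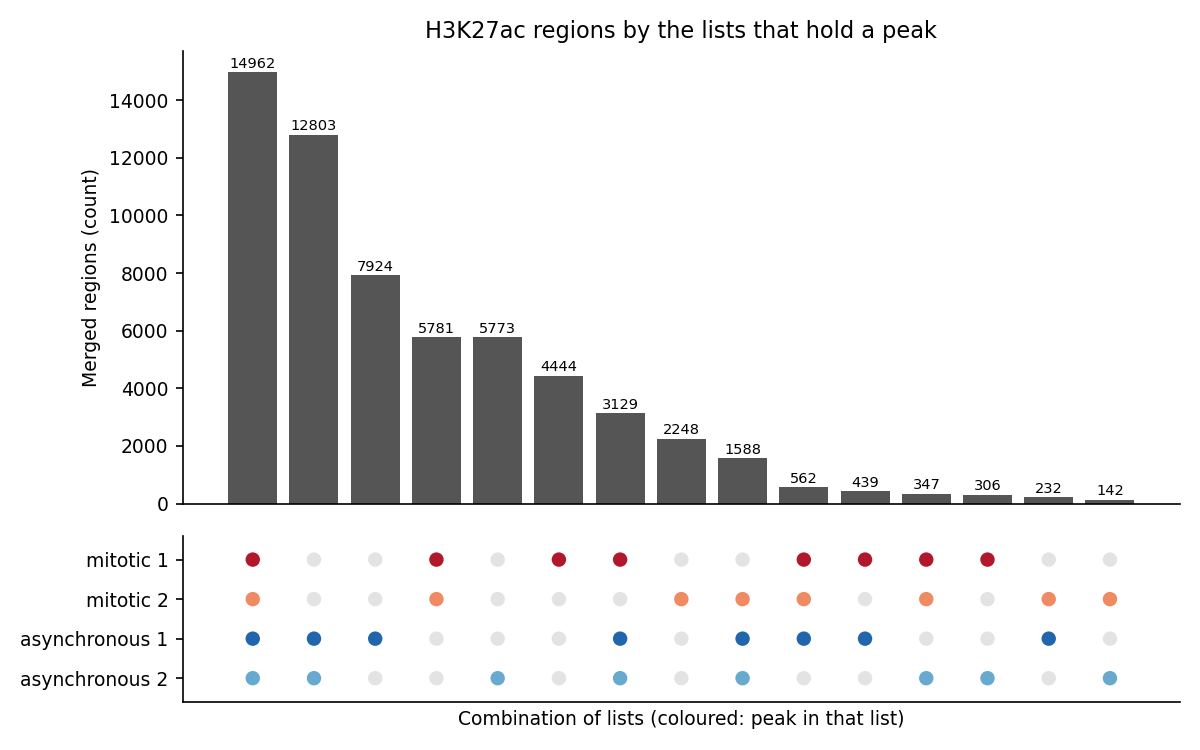
Number of merged H3K27ac regions (bars) for each combination of the 4 lists (coloured points below, mitotic above asynchronous). The largest combinations are all 4 lists (14962), both asynchronous lists alone (12803) and asynchronous 1 alone (7924), while both mitotic lists alone hold 5781.

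Within the kept regions the mark covered fewer bases in mitosis. Mitotic peaks covered 69.2% of their bases in each library, and asynchronous peaks covered 84.4% and 81.3%. The median number of bases covered per kept region was 1273 and 1263 in mitotic lists, against 1567 and 1496 in asynchronous lists. The kept regions were the base of every list: they held 68.3% and 71.7% of the bases of the mitotic lists and 60.9% and 63.0% of those of the asynchronous lists. Among the widest kept regions were 39.0 kb at chr17:36968275-37007292, 28.2 kb on the microtubule-binding tau gene Mapt, 25.2 kb on the myosin gene Myo10 and 25.2 kb on Elovl6, a fatty acid elongase. Median peak width did not separate the states (754 and 890 bp in mitotic lists, 787 and 764 bp in asynchronous lists; exact two-sided permutation test, p = 1).

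The strength of a region in asynchronous cells, its mean percentile of fold within both asynchronous lists, went with its recovery in mitosis. In the weakest quartile 21.7% and 17.2% of regions had a peak in mitotic 1 and mitotic 2. The shares were 37.8% and 32.0% in the second quartile, 68.9% and 62.1% in the third and 94.3% and 92.6% in the strongest. Strong lost regions were few: 18 of 12803 lay at or above the 90th percentile of both asynchronous lists. Of the 5781 mitotic-only regions, 369 (6.38%) lay at or above the 90th percentile of both mitotic lists. The widest lost regions lay on Lamc1, the laminin gamma chain (6.44 kb, chr1:153213811-153220250), Tbc1d8, Wrap53, 18.0 kb from the sodium channel gene Scn3a, and beside Pole4, a subunit of DNA polymerase epsilon. The region on Lamc1 had folds of 23.3 and 14.8 in asynchronous libraries and no mitotic peak. The region beside Pole4 (chr6:82609716-82615747) had asynchronous folds of 21.96 and 20.9, also with no mitotic peak.

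Regions within 1 kb of either end of a gene (the gene table holds no strand) were recovered more often than others. Near gene ends 75.4% and 70.2% of asynchronous regions had a peak in mitotic 1 and mitotic 2, against 45.7% and 41.2% elsewhere, a mean difference of 29.3 percentage points that had the same sign in 2 of 2 libraries. Of 10922 regions near gene ends 66.0% were kept, of 9870 inside genes 36.6%, and of 11690 outside genes 35.4%. Regions near gene ends were also stronger in asynchronous cells, with a median strength of 77.0, against 51.0 inside and 53.6 outside genes. Within quartiles of strength the difference was 10.8 and 6.81 points in the weakest, 12.3 and 10.9 in the second, 14.1 and 11.3 in the third and 8.61 and 8.48 in the strongest, a mean of 10.4. The share of all peaks near gene ends was 28.7% and 30.3% in mitotic lists and 28.2% and 29.1% in asynchronous lists (exact two-sided permutation test, p = 0.667). In lists of equal length this share was 5.24 points lower in mitosis, so its direction depended on list length.

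Regions with a peak of Klf4, Oct4 or Sox2 in asynchronous cells were also recovered more often when regions of all strengths were pooled. Within quartiles of strength the margin averaged under 1 point and differed in sign between quartiles. With at least 1 factor 68.9% and 64.0% were recovered in mitotic 1 and mitotic 2, against 48.6% and 44.0% without, a mean difference of 20.2 points. The mean over quartiles of strength was 0.918 points. Away from gene ends the pooled differences were 18.4 and 17.9 points. From the weakest to the strongest quartile they were 3.96, -2.41, -7.10 and 4.84 points in mitotic 1 there. In mitotic 2 they were 1.65, -2.71, -9.01 and 4.50 points. In the weakest quartile, regions with a Sox2 peak (n = 168) were recovered in 30.4% and 20.8% of cases and those without in 21.5% and 17.1%. For Oct4 in that quartile (n = 218) the shares were 27.5% and 16.97% with a peak and 21.5% and 17.2% without, and for Klf4 (n = 1139) they were 27.04% and 20.02% with and 20.8% and 16.7% without. In the third quartile, where the differences for Sox2 and Oct4 were lowest, regions with a Sox2 peak (n = 472) were recovered in 55.9% and 52.97% of cases and those without in 69.7% and 62.7%. For Oct4 in that quartile (n = 499) the shares were 59.5% and 53.3% with a peak and 69.5% and 62.7% without, and for Klf4 (n = 2587) they were 68.9% and 60.8% with and 68.9% and 62.7% without. In the strongest quartile these shares, with and without each factor, lay between 91.3% and 95.6%. The factor lists are of different lengths and 1 list each stands for Oct4 and Sox2.

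**Figure D4:**
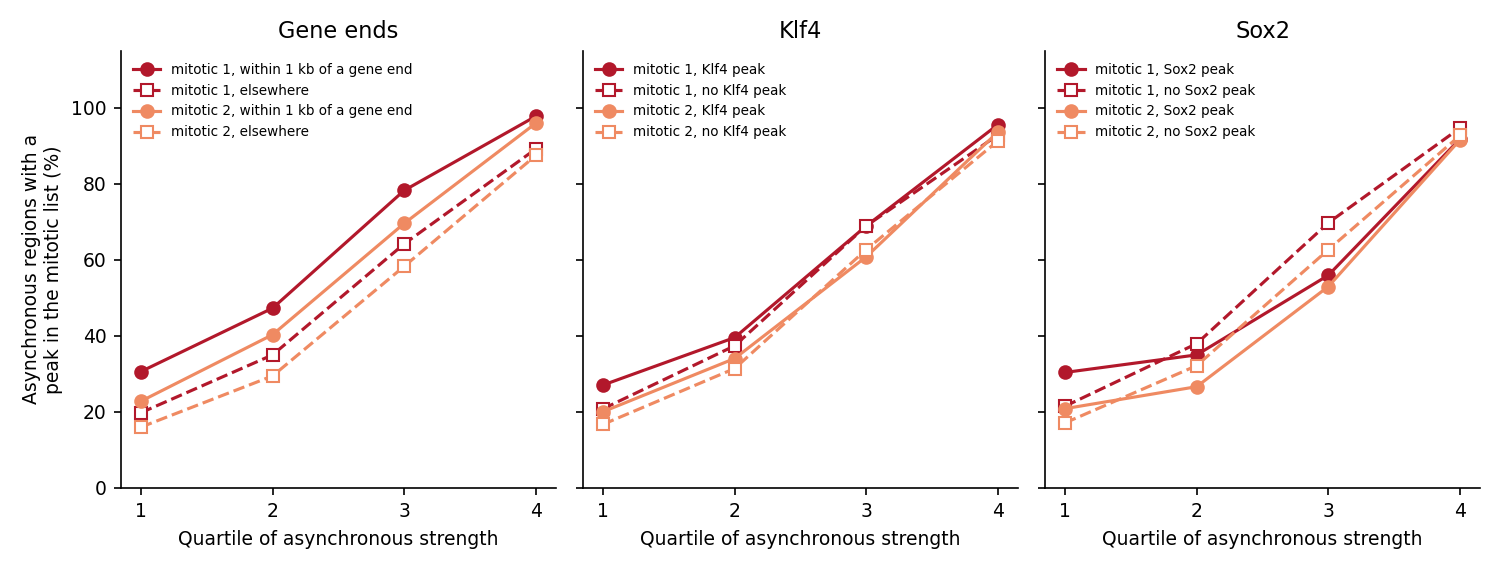
Percent of asynchronous H3K27ac regions with a peak in mitotic 1 (red) and mitotic 2 (orange), by quartile of strength in asynchronous lists, for regions with (filled, solid) and without (open, dashed) a gene end within 1 kb, a Klf4 peak or a Sox2 peak. Recovery was 17.2% to 21.7% over all regions of the weakest quartile and 92.6% to 94.3% in the strongest, the lines for gene ends run above those for other regions, and with Sox2 the weakest quartile lies higher and the third lower than without.

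Mitotic-only regions lay away from gene ends and from these factors. Of them, 7.85% were near a gene end, 44.5% inside genes away from their ends and 47.7% outside genes, against 17.4%, 37.1% and 45.4% of lost regions. An asynchronous Klf4 region overlapped 1.64% of mitotic-only regions, against 19.2% of lost and 40.9% of kept ones, and a mitotic Klf4 region in at least 2 of 3 lists overlapped 0.484%, 5.26% and 17.7%. The 5 widest, chosen after their values were seen, lay in Myo16 and Tubgcp3, both on chromosome 8, in Adamts2 and Rbms3, and 228 kb from Tmpo. In Tubgcp3, a subunit of the gamma-tubulin complex, the region spanned 12.2 kb (chr8:12630216-12642414) with folds of 42.2 and 38.9 in mitotic libraries and no asynchronous peak. In Rbms3, which encodes an RNA-binding protein, it spanned 12.96 kb (chr9:117151916-117164872) with mitotic folds of 32.6 and 29.1. In Adamts2, a procollagen protease, the mitotic folds were 27.04 and 27.1.

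Core pluripotency genes kept the mark in mitosis. All 7 on the list (Pou5f1, Sox2, Nanog, Sall4, Utf1, Dppa4 and Lin28a) had a kept region within 1 kb of the gene, as did 42.9% of all 21887 protein-coding genes (for a gene with no kept region, 6.3% of all genes were partly kept, with a region in both asynchronous lists and 1 mitotic list, 7.98% were lost, 2.36% were mitotic-only and 34.3% had no peak). A gene without an asynchronous region cannot be kept, so genes without one lower the share over all genes, here and for the lists below. Of genes with a region in both asynchronous lists, 9396 were kept, 1378 partly kept and 1747 lost. Longer genes can meet more regions, and neighbouring genes can share one. The median fold of all peaks was 4.65 and 5.06 in the mitotic lists, against 6.03 and 5.95 in the asynchronous lists. Strength was therefore compared between states in the lists of 30771 peaks, with each fold turned into a percentile within its list. For a gene the region strongest in asynchronous cells was used, a choice that by itself favours lower mitotic ranks, for listed genes and for all genes alike. Of 8906 genes with such a region, 22.3% were higher in both mitotic lists than in both asynchronous ones and 48.6% were lower in both. Of the 7 core genes 0 were higher and 4 were lower.

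Nanog, a homeobox factor of the core network, had folds of 18.1 and 14.7 in mitotic libraries and 39.8 and 35.3 in asynchronous libraries, and percentiles of 97.2 and 95.0 against 99.2 and 99.0. Sall4, a zinc finger factor, had 14.2 and 16.1 in mitotic libraries and 31.4 and 33.3 in asynchronous libraries. Both genes lay above the 90th percentile of each list, and the states did not overlap. Utf1, a chromatin-bound factor of undifferentiated cells, had percentiles of 65.3 and 76.3 in mitotic lists and 94.1 and 91.8 in asynchronous lists. Lin28a, which blocks the maturation of let-7 microRNAs, had 38.3 and 57.3 in mitotic lists and 79.8 and 80.8 in asynchronous lists. Dppa4, a DNA-binding factor of the early embryo, had 76.1 and 88.2 in mitotic lists and 69.5 and 81.3 in asynchronous lists, so its states overlapped. Sox2 had 91.8 in mitotic 1 and 100 in mitotic 2, against 95.9 and 97.4 in asynchronous lists, and Pou5f1 had 89.7 in mitotic 1 and 99.99 in mitotic 2, against 99.0 and 96.9 in asynchronous lists. In mitotic 1 alone 6 of the 7 genes were below both asynchronous libraries, and in mitotic 2 4 were below and 3 above.

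Of 20 naive pluripotency genes 17 had a kept region, 2 were lost and Dppa3 had no peak. Of the 17 ranked, 2 were higher and 13 lower. Fgf4, a growth factor that primes cells for differentiation, had folds of 18.6 and 15.9 in mitotic libraries and 33.6 and 31.8 in asynchronous libraries, and Gdf3, a TGF-beta family ligand, had 16.3 and 13.5 in mitotic libraries and 42.6 and 34.6 in asynchronous libraries. The lost genes were Nr0b1, an orphan nuclear receptor (asynchronous folds 12.3 and 10.6), and Prdm14, a repressor of primed fate (9.21 and 8.23). Klf5 and Zfp42 (Rex1) were the 2 higher ones, at percentiles of 88.4 and 89.3 and of 92.3 and 93.9 in mitotic lists, against 85.6 and 76.9 and 89.8 and 91.0 in asynchronous lists, while their folds were lower in mitosis. The stronger of 2 mitotic-only regions on this list lay by Tdgf1, a Nodal co-receptor, with folds of 4.65 and 4.32, and the gene also had a kept region.

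Of 14 primed pluripotency genes 7 were kept, a share near the 42.9% of all genes, 1 (Dnmt3a) was partly kept, 3 were lost (Pou3f1, Dnmt3b and Lef1), Cldn6 was mitotic-only, and Fgf5 and Sox3 had a peak in 1 asynchronous list only. Of the 7 ranked, 0 were higher and 6 lower. Etv4, an ETS factor downstream of Erk, had folds of 11.7 and 11.2 in mitotic libraries and 25.6 and 21.3 in asynchronous libraries. Foxd3, a forkhead repressor, held the strongest lost region of the list, and the stronger of its 2 kept regions had 4.07 and 4.61 in mitotic libraries and 16.2 and 14.5 in asynchronous libraries. Cldn6, a tight junction protein, had mitotic folds of 4.94 and 3.75.

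Among 22 genes of LIF, Wnt, Bmp and Nodal signalling, 17 were kept, 3 were lost, and of 17 ranked 2 were higher and 11 lower. Nodal, the ligand itself, was higher, with folds of 27.3 and 24.5 in mitotic libraries and 25.4 and 26.5 in asynchronous libraries. Fgfr1, an FGF receptor, was the other higher gene, with 15.7 and 21.5 in mitotic libraries and 14.0 and 14.2 in asynchronous libraries. Smad7, an inhibitory Smad, had 16.6 and 15.9 in mitotic libraries and 31.2 and 29.8 in asynchronous libraries. The lost genes were the Bmp targets Id2 and Id3 and the Nodal antagonist Lefty1, with asynchronous folds of 5.02 and 5.60, 8.02 and 6.90, and 6.32 and 6.47. Lefty2, another Nodal antagonist, was kept through a merged region of 11832 bp with a fold of 10.2 in mitotic 1. Merging without mitotic 2 changed the regions there, and Lefty2 was then called lost, although that peak remained in the mitotic 1 list. A mitotic-only region with folds of 8.14 and 8.36 lay by Gsk3b, the kinase that one of the culture inhibitors targets.

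Genes for the machinery that writes, erases and reads acetylation were kept in 22 of 24 cases, and of 22 ranked 2 were higher and 17 lower. Brd2, a bromodomain protein that stays on mitotic chromosomes in some cell types, had folds of 29.9 and 29.7 in mitotic libraries and 50.2 and 41.5 in asynchronous libraries, the strongest kept region of the list. Ep300, the gene of p300, had 27.9 and 26.2 in mitotic libraries and 46.9 and 31.0 in asynchronous libraries, and its percentiles overlapped between the states. Hdac7, a class IIa deacetylase, was lost, with asynchronous folds of 7.49 and 9.61. Hdac3, a class I deacetylase, was kept through a merged region with a fold of 10.2 in mitotic 1. With peaks merged without mitotic 2 the gene was called lost, although that peak remained in the mitotic 1 list. Crebbp, the gene of CBP, had a kept region and a mitotic-only region with folds of 10.4 and 10.7.

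All 24 genes of the mitotic machinery were kept, and of these 6 ranked higher and 13 lower. Kif20a, a kinesin of cytokinesis that shares its region with the neighbouring gene Brd8, had folds of 20.1 and 15.2 in mitotic libraries and 43.3 and 38.9 in asynchronous libraries. Ccnb1, which encodes cyclin B1, had 18.4 and 17.5 in mitotic libraries and 23.8 and 23.6 in asynchronous libraries, and was higher by percentile. Ncapd2, a condensin subunit, had a kept region and also the strongest lost region of the list, and Bub1b, a checkpoint kinase, had a mitotic-only region with folds of 4.85 and 5.34. The lowest shifts of percentile, mitotic minus asynchronous, were -43.6 points at Mad2l1, a checkpoint protein, and -42.8 at Aurkb, the Aurora B kinase, both chosen after their values were seen. Mad2l1 had folds of 5.76 and 4.17 in mitotic libraries and 18.3 and 16.5 in asynchronous libraries.

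Of 24 genes of G1 and S phase 22 were kept, Ccnd2 (cyclin D2) was lost and Myc was partly kept through mitotic 2. Of 22 ranked, 6 were higher and 12 lower. Cdt1, the origin licensing factor, had folds of 20.9 and 21.6 in mitotic libraries and 48.3 and 44.2 in asynchronous libraries, and Mcm7, a subunit of the replicative helicase, had 20.1 and 22.8 in mitotic libraries and 41.7 and 39.9 in asynchronous libraries. Of the other helicase subunits Mcm3 was lower like Mcm7, and Mcm2, Mcm4, Mcm5 and Mcm6 were higher, with Mcm5 at folds of 31.9 and 36.2 in mitotic libraries and 26.9 and 19.2 in asynchronous libraries. A lost region lay by Ccne2, a cyclin E, and a mitotic-only region by Mcm2, with folds of 7.56 and 8.65, and both genes also had kept regions.

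Immediate early genes, which answer signals within minutes, were kept in 14 of 17 cases, and of 14 ranked 5 were higher and 3 lower. Ier2 had folds of 21.8 and 15.0 in mitotic libraries and 33.7 and 25.7 in asynchronous libraries, and Junb, an AP-1 subunit, had 17.2 and 19.3 in mitotic libraries and 31.9 and 17.7 in asynchronous libraries. Btg2, an antiproliferative gene, was higher, like Jund, Egr1, Dusp1 and Ccn1, with 23.8 and 23.9 in mitotic libraries and 8.36 and 7.47 in asynchronous libraries. Fosb, another AP-1 subunit, was lost over all 3 of its regions, the strongest with asynchronous folds of 12.3 and 14.9, and Ier3 and Ier5 were lost as well. Of 18 housekeeping genes 16 were kept, B2m was lost and Pgk1 was partly kept. Eef1a1, an elongation factor, had folds of 23.0 and 21.9 in mitotic libraries and 49.4 and 45.7 in asynchronous libraries. By Pgk1, a glycolytic kinase, lay the strongest lost region of the list, with asynchronous folds of 8.69 and 8.47, and by Ywhaz, a 14-3-3 protein, a mitotic-only region with folds of 6.11 and 4.32.

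Of 18 germ layer regulators, 7 and 6 had a peak in the mitotic lists and 8 and 8 in the asynchronous lists. Of all 21887 genes these numbers were 11772 and 11058 in the mitotic lists and 13178 and 13070 in the asynchronous lists. Of the 18, 2 were kept (Eomes and Runx1), Cdx2 was lost, Gsc was partly kept, and Gata4 and Gata6, factors of endoderm and heart, were mitotic-only. The kept region of Eomes, a T-box factor, had folds of 4.65 and 5.76 in mitotic libraries and 8.69 and 8.32 in asynchronous libraries, and the stronger one of Runx1, a blood factor, had 4.61 and 3.66 in mitotic libraries and 7.35 and 7.99 in asynchronous libraries. Cdx2, a trophoblast factor, had asynchronous folds of 5.03 and 5.20. Gata4 had mitotic folds of 6.40 and 5.48 and Gata6 5.52 and 4.04, and each had 1 asynchronous peak elsewhere at the gene, of 3.92 and 4.13. Hnf4a, a liver and gut factor, had folds of 11.4 and 10.1 in mitotic libraries and a peak of 4.40 in asynchronous 2 only. Of 14 neural progenitor markers 2 were kept: Sox1 had folds of 6.87 and 6.49 in mitotic libraries and 7.22 and 9.03 in asynchronous libraries, and Nes had 4.65 and 5.76 in mitotic libraries and 6.69 and 7.47 in asynchronous libraries. A lost region with asynchronous folds of 13.3 and 9.73 lay by Slc1a3, a glutamate transporter. Of the feeder fibroblast markers, Fbn1 (fibrillin) was kept, with folds of 4.36 and 4.32 in mitotic libraries and 8.22 and 7.04 in asynchronous libraries. Of the listed genes that ranked higher, Zfp42, Fgfr1, Mcm5, Jund and Sox1 lie on chromosome 8. Without mitotic 2, kept genes numbered 4 on the neural list and 2 on the fibroblast list.

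Most of the regions that moved furthest in rank lay by genes of none of these lists. Of 13301 regions present in all 4 lists of equal length, 24.5% were higher in both mitotic lists and 44.2% lower in both. The region with the largest gain in percentile lay on Tmem19, a membrane protein gene (chr10:115361595-115363796), with percentiles of 99.0 and 98.7 in mitotic lists and 1.89 and 0.257 in asynchronous lists. The next 4 lay on Slc4a8, a bicarbonate transporter, 0.591 kb from Mau2, a cohesin loader on chromosome 8, and on Ubtd1 and Arhgap19, with gains of 93.9, 91.3, 88.4 and 87.7 points. The region with the largest drop in percentile lay 384 kb from Stmn2 (chr3:8122549-8125403), with percentiles of 0.275 and 0.271 in mitotic lists and 91.4 and 90.1 in asynchronous lists. The next 4 lay on Hrh2, a histamine receptor gene, 95.6 kb from Rpl38, on Tns1 (tensin) and on Rabggta. Klf4 overlapped 36.5% of the regions that ranked higher and 51.9% of those that ranked lower, Oct4 6.03% and 11.8%, and Sox2 4.07% and 11.6%. Over all 13301 regions the shares were 43.1% for Klf4, 8.51% for Oct4 and 7.65% for Sox2. No test was made of these shares. Median widths were 2124 bp for regions that ranked higher and 2277.5 bp for those that ranked lower.

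Genes induced by p53, the tumour suppressor that answers DNA damage and other stress, mostly ranked higher in mitosis, and none of those listed lies on chromosome 8. This list of 24 genes was drawn up after Trp53inp1, Ccng1, Cdkn1a and Btg2 had been seen at high folds, so its counts are a description. Of its 24 genes 22 were kept, Dcxr was mitotic-only and Fas had a peak in mitotic 1 only. Of 20 ranked, 18 were higher in both mitotic lists and 2, Sesn1 and Rrm2b, were lower, against 22.3% and 48.6% of all ranked genes. The median shift of the 20 was 8.96 points, but a gain of any size counts as higher. At Mdm2, Aen, Trp53inp1 and Bax, near the top of every list, the gains were 0.19, 0.50, 0.62 and 0.87 points. The folds of Mdm2 were lower in both mitotic libraries than in both asynchronous ones. Without the 4 genes seen first, 14 of 16 were higher, and with either mitotic library alone 18 of 20 were. These counts are a description too. They use the same libraries, and the remaining members were also chosen with earlier results of these data known. Trp53inp1, a p53-induced regulator of autophagy, had the highest fold of mitotic 1, with 57.2 and 55.7 in mitotic libraries and 39.6 and 39.2 in asynchronous libraries.

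Cdkn1a, which encodes the cyclin-dependent kinase inhibitor p21, had folds of 30.4 and 28.8 in mitotic libraries and 10.7 and 8.32 in asynchronous libraries, and percentiles of 99.5 and 99.5 against 67.1 and 53.8. Ccng1, cyclin G1, had 49.2 and 49.6 in mitotic libraries and 20.8 and 23.3 in asynchronous libraries. The apoptosis gene Pmaip1 (Noxa) had the largest shift of the list, 55.2 points, with folds of 14.0 and 13.5 in mitotic libraries and 7.36 and 6.62 in asynchronous libraries. For these 3 genes the states did not overlap. Mdm2, the ligase that degrades p53, was near the top in both states, with folds of 42.7 and 39.5 in mitotic libraries and 43.0 and 45.0 in asynchronous libraries. Aen, an exonuclease of apoptosis, had 44.3 and 48.7 in mitotic libraries and 38.9 and 43.4 in asynchronous libraries. Gtse1, a microtubule-associated protein that restrains p53, had 43.9 and 38.8 in mitotic libraries and 25.3 and 23.0 in asynchronous libraries. Plk2, a Polo-like kinase that was not among the ranked genes, had 23.8 and 23.6 in mitotic libraries and 5.03 and 5.84 in asynchronous libraries. A mitotic-only region with folds of 13.1 and 12.97 lay by Trp53inp1, and a lost one with asynchronous folds of 8.02 and 6.05 by Rrm2b, a ribonucleotide reductase subunit.

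**Figure D5:**
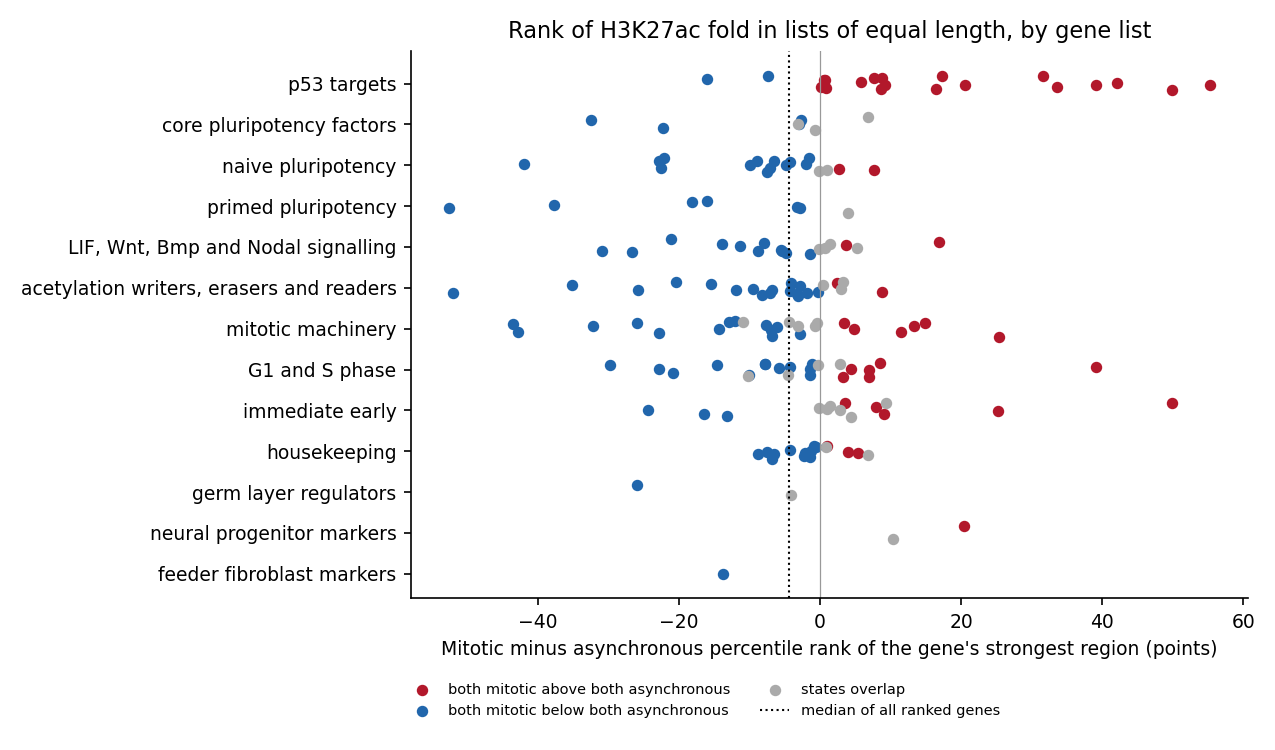
Difference in percentile rank of fold, mitotic minus asynchronous, for the strongest region of each gene (1 point per gene) by gene list, in lists of 30771 peaks. Red points have both mitotic libraries above both asynchronous ones, blue points the reverse, grey points overlap. Of the p53 targets 18 of 20 are red, and the dotted line marks the median of all 8906 ranked genes, -4.36 points.

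Promoter sequence was compared next. The 21263 promoters of protein-coding genes in the RefSeq table (GRCm38.p6, not complete) were classed by the region they overlapped, and 156 of the 219 genes on the other 12 lists had an entry. A p53 consensus site as defined above was found in 57 promoters, 0.268% of all. Among 94 promoters with a mitotic-only region 5 held a site (5.32%), among 7643 kept ones 23 (0.301%) and among 1276 lost ones 1 (0.0784%). Of 7290 promoters with a ranked region, 23.1% were higher in both mitotic lists and 46.9% lower. Of 23 with a p53 site 15 were higher (65.2%) and 3 lower. The higher ones included Cdkn1a, Ccng1, Rps27l, Ckap2 and Kif23, and the lower ones were Slc27a1, Bbs2 and Ppp2ca. This motif was searched because of the list above, and Cdkn1a and Ccng1 were among the genes that prompted that list. The counts of sites include both genes and are a description. The Cdkn1a and Ccng1 sequences show the site in capitals. Those of Btg2 and Gtse1, which also ranked higher, have no such match in these windows.

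Kept and lost promoters had the same median GC content, 61.6%. The median number of CpG dinucleotides in 250 bases was 18 in kept, 15 in lost, 8 in mitotic-only and 3 in promoters without a region. CCGGAAG was found in 18.1% of kept and 8.78% of lost promoters, against 8.98% of all promoters. TGACGTCA was found in 3.41% of kept and 1.33% of lost promoters, against 1.92% of all. In the weakest quartile of strength CCGGAAG was in 17.2% of 923 kept and 8.38% of 979 lost promoters, and in the second quartile in 18.7% of 1859 and 9.05% of 221. The GC box GGGCGG was at like shares in both (63.7% of kept, 63.3% of lost, 42.6% of all), as was the TATA box TATAAA (5.14% and 5.09%, 11.6% of all), the CCAAT box was in 35.7% of kept, 37.9% of lost and 35.4% of all, and the E box CACGTG was in 9.49% of kept, 7.05% of lost and 6.63% of all promoters. No test was made of these shares, and a match is a description of the letters only.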

How the data were processed

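H3K27ac ChIP-seq was measured in 2 mitotic and 2 asynchronous libraries read as single ends of 50 nt. Per the submitters' processing notes the tools were cutadapt 1.8.1, Bowtie2 2.2.5, deepTools 2.3.6 and MACS2 2.1.1, and the build was mm10. The authors deposited 1 narrowPeak list per library, in which each peak has a fold (a ratio over local background) and p- and q-values as −log10. The deposited −log10 p was 5 or more for each listed peak. Summit positions and read counts were not used here, so no interval on depth is given.

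Merging and scoring used pandas 2.3.3 and numpy 2.4.6 under Python 3.11.15, and matplotlib 3.10.9 drew the figures. The merging, the overlap and the permutation test were tested on simulated data. A gene's fold is the highest in each library over the merged regions that reach within 1 kb of the gene. The peak itself can therefore lie further away. Genes were 21887 protein-coding genes of a RefSeq table (GRCm38.p6, no strand). Klf4 regions came from at least 2 of 3 asynchronous lists, Oct4 and Sox2 peaks from 1 list each. Lists were shortened to the shortest one's length by −log10 p. Library values were tested by exact permutation. Named genes were all core pluripotency factors. In each other list they were the 2 with the strongest kept region and those with the strongest lost and mitotic-only regions. The 5 regions with the largest gain and the 5 with the largest drop in rank and the widest 5 kept and lost were also named. Some genes and regions that this rule names are not reported here. Others are given to name counts or were chosen after their values were seen. Members and lists were chosen with earlier results of these data known. Alternatives were stricter q, equal list length, leaving out each library, other merging, coverage and windows, and strata of width or strength.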

Additional observations from a re-analysis of the deposited data

How the results depend on the processing

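The comparisons of list length, covered bases, and overlap kept their direction in each alternative run for them, and no p could fall under the threshold with 2 against 2 libraries. Median width reversed with lists of equal length (log2 difference -0.22) and without mitotic 2 (-0.0404), and ranged from -0.04 to 0.20 when 1 library was left out. The gene-end share reversed with lists of equal length (-5.24 points). Lost regions numbered 6378 with lists of equal length, 8138 when peaks up to 1 kb apart were merged, and 14649 to 22427 without 1 library. Kept regions numbered 9318 when peaks had to cover 50% of a region. Mitotic-only regions numbered 12473 when a peak in any mitotic list sufficed and 6162 to 11114 without 1 library. The gene-end difference in recovery was 27.3 points with −log10 q of at least 5, 24.1 with lists of equal length, 26.7 with peaks up to 1 kb apart merged, 21.1 with a window of 5 kb, 30.2 with transcription starts, 22.4 over quartiles of region width and 28.5 to 33.2 without 1 library. The factor difference was 12.97, 11.1, 17.7 and 4.87 points under the first 3 and the width quartiles, and 20.0 to 29.6 without 1 library.

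Strata of asynchronous strength and width, and leaving out chromosome 8 or mitotic 2 at gene lists, were added after seeing the data. Strength quartiles gave 10.4 points for gene ends and 0.918 for factors, asynchronous width quartiles 23.8 and 6.06, and leaving out chromosome 8 gave 20.0 for factors. The cause of these differences was not tested. With a window of 20 kb around gene ends, kept genes numbered 5 of 18 germ layer regulators, 4 of 14 neural and 4 of 17 fibroblast markers. Of all 21887 genes 11935 were kept with that window, against 9396 in the main setting, so the wider window raised the count generally.

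With replicate number as a replicate block, the log2 differences were -0.49 in peaks, -0.44 in bases and 0.08 in width, and 0.84 points in gene-end share (smallest possible exact p = 0.5). The labels link same-numbered libraries by their number only. Over kept regions the replicate differences of log2 fold in the 2 states had a correlation of -0.02. That value cannot show whether such libraries shared a culture or preparation. Unknown depth limits each count, and a peak absent from a list does not show that the mark was absent.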
